A study of Mus musculus with 66 samples.

Results

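Inmt, which encodes an enzyme that methylates indole amines, and the paraoxonase genes Pon1, Pon2 and Pon3 were followed in the lungs of mice that lacked Nrf2 and of wild-type mice. All probe sets whose platform annotation gives exactly 1 of these genes, by its current or an older symbol, were taken. This gave 7 probe sets of the 45037 on the array that are not controls, and 4 genes of the 18193 with a probe set of their own. Inmt (probe set 1418697_at), Pon1 (1418190_at) and Pon3 (1419298_at) have 1 probe set each and Pon2 has 4, of which 1429019_s_at and 1450686_at are bright and 1429020_at and 1425791_at dim. The study compared whole-lung RNA of Nrf2-/- mice (KO) with that of Nrf2+/+ mice (WT) at 11 ages, which were embryonic days 13.5, 15.5, 17.5 and 18.5 (E13.5 to E18.5) and postnatal days 0, 1, 2, 3, 4, 14 and 42 (PND0 to PND42). Each of the 22 groups had 3 samples, 33 of each genotype, and each sample was hybridised to 1 one-colour Affymetrix array. Every sample was homogenised whole lung from untreated animals on a defined diet, and at E13.5 a sample pooled 2 to 3 lungs, while the other samples came from 1 lung each. The deletion is present in all cells of the KO mice, and the labels give no strain and no sex.

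Nfe2l2 encodes Nrf2, a transcription factor through which cells raise detoxifying and antioxidant enzymes, acting at short DNA sites called antioxidant response elements. INMT transfers a methyl group from S-adenosylmethionine to the nitrogen of tryptamine and related amines, lung is among the tissues richest in it, and its transcript is used as a marker of alveolar fibroblasts in mouse lung. The paraoxonases are calcium-dependent lactonases and esterases: PON1 and PON3 are made mainly by the liver and travel in blood on high-density lipoprotein (HDL), whereas PON2 stays inside cells of most tissues. PON1 protects lipids from oxidation and breaks down the active forms of some organophosphate insecticides.

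The genes were chosen by measured values, namely their KO minus WT differences before birth: Inmt at E13.5 and E15.5 and Pon1 at E17.5 and E18.5. The prenatal genotype differences of all 4 genes are therefore given as values with no test. The rise of Inmt over the WT ages was also among the values that drew attention to it, and Pon1's WT steps before birth share those samples, so these too are described only. The tests cover the 7 postnatal ages and the age steps that played no part in the choice.

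The deleted factor acts through promoter sites. By its brightest probe set, each of the 4 genes lay higher in KO at E17.5 and lower in KO at E18.5, as labelled. The sequences around the 4 transcription start sites, as annotated by RefSeq on GRCm38.p6, are therefore shown. Each holds 250 bases before and 50 bases from the start, all 4 lie on the minus strand of chromosome 6, and letters run 5′ to 3′ along the gene. Pon1, Pon3 and Pon2 are direct neighbours there, with no other annotated gene between them. Capitals mark matches on either strand to the core of the antioxidant response element (TGACNNNGC), to the TATA box (TATAAA) and to the GC box (GGGCGG), and no matches overlapped.
Inmt promoter, chr6:55174941-55175240: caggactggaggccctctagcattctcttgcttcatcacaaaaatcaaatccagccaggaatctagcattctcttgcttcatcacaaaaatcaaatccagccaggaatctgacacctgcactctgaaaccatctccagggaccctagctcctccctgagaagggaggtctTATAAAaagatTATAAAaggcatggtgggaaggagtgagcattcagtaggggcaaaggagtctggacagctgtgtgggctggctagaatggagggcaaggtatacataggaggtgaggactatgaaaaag
Pon1 promoter, chr6:5193897-5194196: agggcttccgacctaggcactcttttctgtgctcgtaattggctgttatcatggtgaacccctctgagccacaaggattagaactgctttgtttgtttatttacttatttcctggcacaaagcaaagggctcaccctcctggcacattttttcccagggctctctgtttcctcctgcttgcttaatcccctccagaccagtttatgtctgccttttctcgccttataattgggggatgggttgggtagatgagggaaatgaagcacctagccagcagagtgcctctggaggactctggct
Pon2 promoter, chr6:5298291-5298590: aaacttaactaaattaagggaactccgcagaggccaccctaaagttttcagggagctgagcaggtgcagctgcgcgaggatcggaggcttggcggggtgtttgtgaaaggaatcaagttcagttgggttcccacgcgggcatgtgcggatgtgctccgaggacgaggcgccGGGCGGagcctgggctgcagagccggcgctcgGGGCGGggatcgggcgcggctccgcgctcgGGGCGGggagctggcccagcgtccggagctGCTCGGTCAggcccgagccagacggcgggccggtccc
Pon3 promoter, chr6:5256184-5256483: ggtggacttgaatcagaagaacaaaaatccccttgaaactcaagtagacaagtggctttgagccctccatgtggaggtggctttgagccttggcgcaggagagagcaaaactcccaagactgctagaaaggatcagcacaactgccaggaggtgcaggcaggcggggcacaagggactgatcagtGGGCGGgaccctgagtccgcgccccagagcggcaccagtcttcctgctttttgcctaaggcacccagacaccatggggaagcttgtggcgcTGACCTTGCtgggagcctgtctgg
The element core was found once in Pon2, on the opposite strand at bases 14 to 22 after the start, and once in Pon3 at bases 27 to 35. It was not found in the Inmt and Pon1 windows, and 12.4% of all 32851 RefSeq promoters of this length hold it. Inmt has 2 TATA boxes, at bases -80 to -75 and -69 to -64, a motif held by 13.6% of promoters. The GC box stands 3 times in Pon2 and once in Pon3, against 35.7% of promoters with at least 1. The share of G and C was 67.7% in Pon2, 57.7% in Pon3, 49.3% in Pon1 and 47.7% in Inmt, beside a median of 52.7% over all promoters. A match is only a run of letters, and binding was not measured.

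Levels are log2(quantile-normalized signal + 16), so a signal of 0 stands at 4 and differences of dim probe sets are understated. The main Nfe2l2 probe set, 1416543_at, lay between 4.41 and 8.26 in KO libraries and between 10.49 and 12.25 in WT libraries. Genotype labels and the signal of this probe set thus went together in all 66. The other Nfe2l2 probe set, 1457117_at, did not separate the genotypes, at 4.36 to 10.19 in KO and 4.46 to 9.72 in WT. The 24 arrays of PND1 to PND4 were scaled differently before deposit from the other 42 (array medians of 40.6 to 81.3 against 85.2 to 127.4), and steps between PND0 and PND1 or between PND4 and PND14 are given without a test. Both genotypes of an age always lay in the same set. On a scale of 2482 genes that runs from 0 at WT E15.5 to 1 at WT PND0, the libraries labelled KO E17.5 stood at 0.746 ± 0.037 and those labelled KO E18.5 at 0.437 ± 0.070, against 0.568 ± 0.063 for WT E17.5 and 0.790 ± 0.086 for WT E18.5 (SD, n = 3 each). The KO libraries of these ages thus stood in the opposite order to their labels. Whether the labels of these KO groups were exchanged was not tested, and every KO minus WT value at E17.5 and E18.5 is given as labelled. WT PND14 replicate 2 stood apart from its group (0.608, against 0.998 and 0.961). In bulk tissue, fewer cells of a type and less RNA per cell cannot be told apart.

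With 3 libraries against 3, groups that do not overlap are common on this array, so such counts are described and not read as tests. All KO libraries lay above all WT libraries for 7.13%, 10.1%, 12.2% and 13.3% of all probe sets at the 4 prenatal ages, youngest first, and for 14.2%, 10.8%, 10.6%, 13.8%, 9.91%, 8.47% and 12.7% at the 7 postnatal ages in the same order. They lay below all WT libraries for 8.18%, 8.82%, 11.2% and 12.7% of probe sets at the 4 prenatal ages, and for 14.1%, 8.95%, 9.62%, 13.7%, 8.47%, 6.65% and 12.4% after birth, again by age.

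Inmt was already present in KO lungs at E13.5 and E15.5, when the signal in WT lungs was low. At E13.5 its level was 11.70, 7.28 and 9.89 in the KO libraries, against 5.73, 5.75 and 5.42 in the WT libraries. All KO libraries lay above all WT libraries, and the KO libraries differed from each other by more than 4 log2 units. At E15.5 the levels were 8.40, 7.36 and 8.57 in KO and 5.87, 5.61 and 4.12 in WT. The deposited signals behind the WT values at E15.5 were 47.0, 36.6 and 1.60, near the floor of the array. The KO minus WT difference was 3.99 at E13.5 and 2.91 at E15.5 (SE 0.47). That SE rests on 1 spread shared by all 22 groups, and the KO libraries at E13.5 had an SD of 2.22. The value at E15.5 depends on the constant added before the logarithm, with 4.09 for a constant of 1 and 1.90 for 64.

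The KO libraries at E13.5 did not differ in Inmt alone. In replicates 1, 2 and 3, where Inmt was 11.70, 7.28 and 9.89, the mean over 6 club cell markers (secretory cells of the airway, such as Scgb1a1) was 11.92, 8.18 and 10.37. The main Nfe2l2 probe set itself read 8.26, 5.43 and 6.76 in the same order. Alveolar type 2 markers ran from 8.50 to 10.93 in these KO libraries and from 8.17 to 8.32 in WT, whereas the 9 alveolar fibroblast markers ran from 10.06 to 10.34 in KO and from 10.17 to 10.25 in WT. The part of these markers in the Inmt values was not tested.

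At E17.5 Inmt stood at 11.30, 11.41 and 11.58 in the libraries labelled KO, against 9.89, 9.97 and 10.48 in WT, a difference of 1.32. At E18.5 the order was turned round, with 9.22, 9.43 and 9.52 in KO and 12.30, 12.13 and 11.10 in WT, a difference of -2.45. The groups did not overlap at either age. In WT, Inmt was 4.91 log2 units higher at E17.5 than at E15.5 and another 1.73 higher at E18.5, so most of its prenatal increase fell between E15.5 and E17.5.

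After birth no genotype difference of Inmt passed the main test at any age. That test takes 1 spread over all 22 groups, among which KO E13.5 was the widest for Inmt (SD 2.22). At PND0 Inmt was 13.21, 12.89 and 12.70 in KO and 12.73, 12.22 and 12.41 in WT, and the groups overlapped (difference 0.48 ± 0.47, SE, n = 3 per group, limma adjusted p = 0.636). At PND1 it read 12.12, 12.40 and 12.19 in KO and 13.15, 12.63 and 12.71 in WT, at PND2 11.50, 12.46 and 11.86 in KO and 11.09, 11.65 and 11.60 in WT, and at PND3 10.09, 10.99 and 10.49 in KO and 10.51, 10.29 and 10.36 in WT. KO lay below WT without overlap at PND1 and the groups overlapped at PND2 and PND3. At PND4 the levels were 9.61, 9.14 and 9.07 in KO, against 10.29, 10.48 and 10.41 in WT. All 3 KO libraries lay below all 3 WT libraries at PND4, but the difference of -1.12 did not pass (limma adjusted p = 0.395). It did pass with each scaling set fitted alone (-1.05, limma adjusted p = 0.0267) and with only the groups compared in the fit (-1.05, limma adjusted p = 0.0152). Within KO, Inmt fell by 2.96 between PND1 and PND4 (SE 0.47, limma adjusted p = 1.39e-05, with 7.88% of all probe sets called), and the WT difference between PND4 and PND1 was -2.44.

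Inmt reached its highest levels at PND14 and PND42. At PND14 it read 14.50, 14.49 and 14.55 in KO and 14.14, 12.89 and 14.29 in WT, with the library that stood apart, WT replicate 2, lowest. At PND42 it read 14.57, 14.54 and 14.52 in KO and 14.60, 14.70 and 14.61 in WT. Within KO it rose by 1.58 between PND0 and PND14 (SE 0.47, limma adjusted p = 0.00716, 30.7% of probe sets called), and it stood 0.03 higher at PND42 than at PND14 (limma adjusted p = 0.981, 12% called). The differences at the 7 postnatal ages lay between -1.12 and 0.74, without overlap at PND1, PND4, PND14 and PND42. Their average was 0.01, with a 95% interval of -0.35 to 0.36 (limma adjusted p = 0.986, while 15.7% of all probe sets passed).

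**Figure D1:**
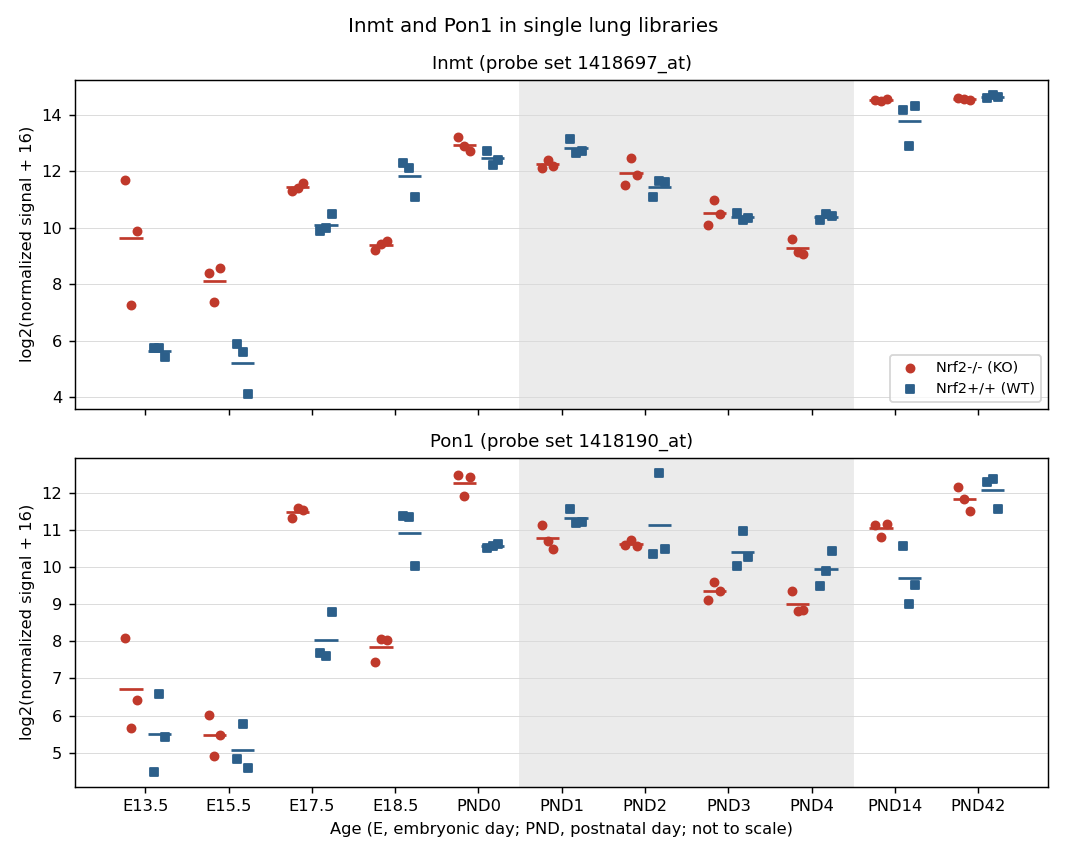
Level of Inmt and Pon1 (vertical axes, log2 of normalized signal + 16) in each of the 66 lung libraries by age, KO circles left of WT squares, with bars at group means and the grey band over the ages whose arrays were scaled differently. Inmt lies above WT in all KO libraries at E13.5, E15.5 and E17.5, both genes lie below WT in all KO libraries at E18.5, and Pon1 lies above WT in all KO libraries at PND0.

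Pon1 was low before E17.5. At E13.5 it read 8.09, 5.67 and 6.42 in KO and 4.48, 6.58 and 5.42 in WT, and at E15.5 6.02, 4.90 and 5.48 in KO and 4.82, 5.77 and 4.59 in WT. The genotypes overlapped at both ages, with differences of 1.23 and 0.40. In the libraries labelled KO E17.5 it read 11.32, 11.60 and 11.55, against 7.68, 7.60 and 8.80 in WT, a difference of 3.46. In those labelled KO E18.5 it read 7.46, 8.06 and 8.03, against 11.38, 11.36 and 10.03 in WT, a difference of -3.07. Both ages separated the genotypes completely and in opposite directions. In WT, Pon1 was 2.97 higher at E17.5 than at E15.5 and 2.89 higher at E18.5 than at E17.5, so its increase was spread over both steps, unlike that of Inmt.

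Other transcripts moved with Pon1 in the KO libraries labelled E17.5. Hepatocyte markers (9 genes, such as Alb, the plasma protein albumin) averaged 7.36 to 8.22 in these KO libraries and 5.02 to 5.20 in WT, and the 6 alveolar macrophage markers averaged 9.07 to 9.32 in KO and 7.31 to 7.67 in WT. At E18.5 hepatocyte markers averaged 5.41 to 6.36 in KO and 4.87 to 5.29 in WT, the opposite order to Pon1, and macrophage markers averaged 7.49 to 7.66 in KO and 7.92 to 8.43 in WT. The part of these cells in the Pon1 values was not tested.

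Because the KO libraries of these ages stood in the opposite order to their labels on the scale of lung genes, they were also set beside the WT group nearest to them on it. The KO libraries labelled E17.5 were 0.41 lower in Inmt than WT E18.5 and 0.57 higher in Pon1. The KO libraries labelled E18.5 were 0.72 lower in Inmt than WT E17.5 and 0.18 lower in Pon1. For Pon2 these crossed differences were -0.15 and -0.09, and for Pon3 0.03 and -0.35. For the brightest probe set of each gene, each crossed difference was smaller in size than the difference between libraries of the same labelled age. This did not hold for KO labelled E17.5 with the Pon2 probe sets 1450686_at and 1425791_at. For 1425791_at the crossed difference was -0.62, against -0.03 at the same label. Pon1 was chosen by its differences at these labelled ages, so a smaller crossed difference carries no weight for that gene. How many of all probe sets had smaller crossed differences was not counted, and no conclusion on the labels is drawn. At E13.5 and E15.5 positions on the scale ran from -0.177 to 0.0895 in KO and from -0.149 to 0.0155 in WT. The 3 KO libraries of E13.5 stood at 0.0895, -0.177 and -0.0884, in the same order as their Inmt levels. KO E13.5 replicate 1 and KO E15.5 replicate 1 lay above every WT library of these ages on the scale. KO E13.5 replicate 2 lay below all of them, so single libraries were not matched in position. Group means were -0.059 in KO and -0.119 in WT at E13.5, and -0.005 in KO and 0 in WT at E15.5. The part of these positions in the Inmt values was not tested.

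**Figure D2:**
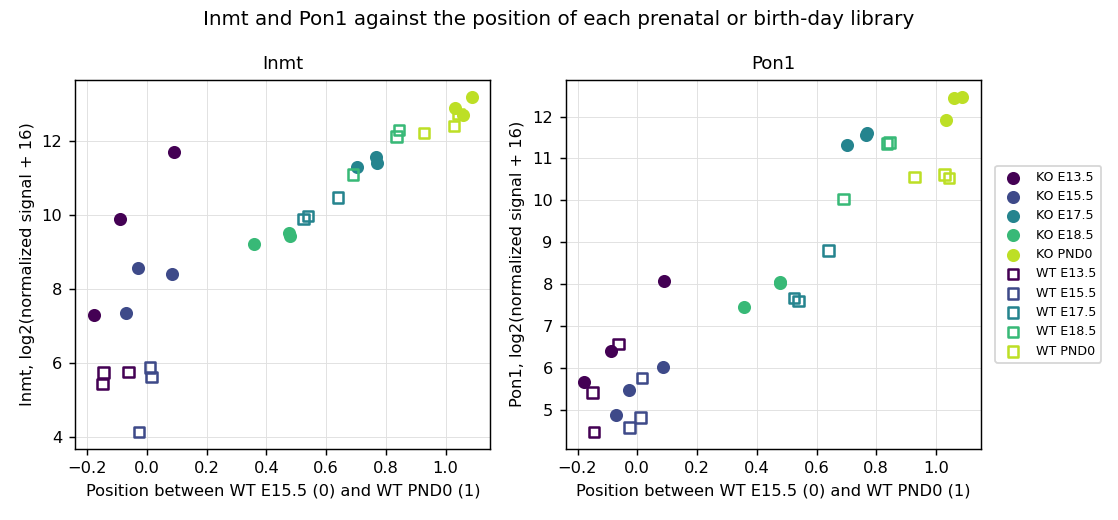
Level of Inmt and Pon1 (vertical axes, log2 of normalized signal + 16) against each library's place on the scale from WT E15.5 (0) to WT PND0 (1), for E13.5 to PND0, with KO filled and WT open. From a place of about 0.357 upward Inmt runs as 1 band of KO and WT libraries, while near 0 the KO libraries lie above WT, and at PND0 KO lies above WT for Pon1.

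Pon1 rose in KO at birth, and its average over the 4 days that followed was lower in KO. At PND0 it read 12.48, 11.92 and 12.44 in KO, against 10.53, 10.56 and 10.62 in WT, a 3.26-fold rise with no overlap (log2 difference 1.71 ± 0.46, SE, n = 3 per group, limma adjusted p = 0.00846). Of all probe sets, 10.7% passed at PND0. This was the 1 age of 7 at which Pon1 passed. Macrophage markers averaged 9.40 to 9.59 in KO and 8.93 to 9.19 in WT at PND0, though none of the 6 passed. Chil3 (1.61) and Marco (1.10) were the markers with differences over 1, and the other 4 lay between -0.36 and 0.12. Without Chil3 the marker means overlapped, at 8.79 to 8.98 in KO and 8.61 to 8.91 in WT, and Chil3 is also the gene whose course over the 22 groups was most like that of Pon1. Hepatocyte markers averaged 5.34 to 6.07 in KO and 4.98 to 5.43 in WT.

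At PND1 Pon1 read 11.14, 10.71 and 10.50 in KO and 11.57, 11.19 and 11.23 in WT. At PND2 it read 10.59, 10.74 and 10.57 in KO and 10.35, 12.55 and 10.49 in WT, where replicate 2 stood about 2 log2 units above the others. At PND3 the values were 9.11, 9.61 and 9.36 in KO and 10.03, 10.97 and 10.27 in WT. At PND4 they were 9.37, 8.81 and 8.85 in KO and 9.48, 9.90 and 10.45 in WT. All KO libraries lay below all WT libraries at PND1, PND3 and PND4. At PND2 all KO libraries lay above WT replicates 1 and 3, and without WT replicate 2 the difference turned to 0.22 (limma adjusted p = 0.883). The differences over all libraries were -0.54, -0.49, -1.06 and -0.93, and none passed alone (limma adjusted p between 0.158 and 0.662). At PND1, PND2, PND3 and PND4, 2.05%, 5.96%, 8.08% and 0.486% of all probe sets passed. Averaged over the 4 days, Pon1 was 1.69-fold lower in KO (log2 difference -0.76 ± 0.23, SE, limma adjusted p = 0.0191, where 13.7% of all probe sets passed).

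Liver transcripts differed between the genotypes over the same days. Hepatocyte markers averaged above 7 in 8 postnatal libraries, of which 1 was KO (PND2 replicate 3, at 10.90) and 7 were WT (PND1 replicates 2 and 3, PND2 replicates 2 and 3, PND3 replicates 2 and 3 and PND4 replicate 3, at 8.02 to 14.01). The WT PND2 library with the high Pon1 value held the most, at 14.01. In WT PND2, PND3 and PND4 the library highest in these markers was also highest in Pon1, at 12.55, 10.97 and 10.45. In WT PND1 and KO PND2 the library highest in these markers was lowest in Pon1, at 11.19 and 10.57. All 9 hepatocyte markers passed as lower in KO over PND1 to PND4, with a median difference of -2.59. Without these 8 libraries the Pon1 difference was -0.46 with a limma adjusted p of 0.433, and without WT PND2 replicate 2 alone it was -0.58 with 0.0661. The WT libraries that remained at PND1 and PND3 still held liver transcripts, with Alb at 8.58 and 8.40, against 6.44 to 8.72 in KO at PND1 and 7.04 to 7.36 in KO at PND3. Leaving out the 8 left a single WT library at PND1, PND2 and PND3, whose spread was taken to be that of the other groups, and the number of probe sets called over PND1 to PND4 went down to 3048, against 6188 with all libraries.

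Macrophage markers were also lower in KO over these days. They averaged 8.60 to 8.88 in KO and 9.30 to 9.52 in WT at PND1, 8.42 to 8.78 in KO and 9.07 to 9.86 in WT at PND2, 8.19 to 8.42 in KO and 8.54 to 9.13 in WT at PND3, and 8.42 to 8.83 in KO and 9.35 to 9.51 in WT at PND4. The genotypes did not overlap in these means on any of the 4 days. Over PND1 to PND4, 5 of the 6 markers passed as lower in KO, among them the scavenger receptor Marco (-1.90, limma adjusted p = 1.22e-08) and the chitinase-like Chil3 (-0.86, limma adjusted p = 0.0291), while lysozyme, Lyz2, stood at 0.05. Marco was near the floor of the array in KO (4.29 to 5.35 at PND1, against 6.60 to 7.09 in WT). At PND14 the marker means overlapped, at 9.39 to 10.14 in KO and 9.21 to 9.99 in WT, where Pon1 stood 1.35 higher in KO. Of the 6 markers, Cd68 was lower in KO (-0.93, limma adjusted p = 0.000919) and Marco stood at -0.52 without passing. Chil3 (1.03), Lyz2 (0.23), Siglecf (0.13) and Mrc1 (0.11) stood higher in KO, and none of these passed. At PND42 the 6 markers averaged 9.60 to 9.86 in KO and 10.17 to 10.44 in WT. Marco was lower there (-1.70, limma adjusted p = 0.0132), and Pon1 overlapped between genotypes. The part of either cell type in the Pon1 difference was not tested.

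**Figure D3:**
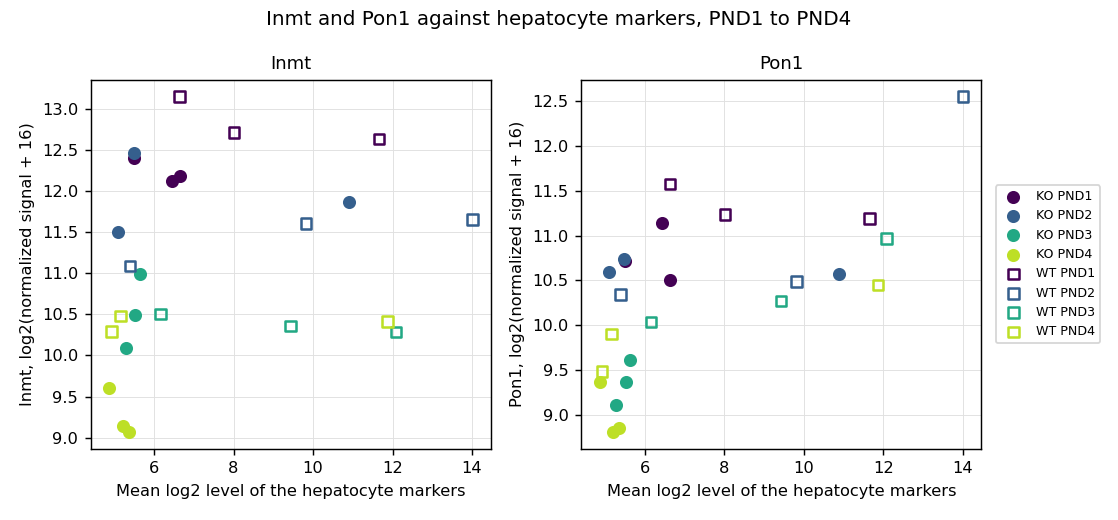
Level of Inmt and Pon1 (vertical axes, log2 of normalized signal + 16) against the mean log2 level of 9 hepatocyte markers (horizontal axes) in the 24 libraries of PND1 to PND4, with KO filled and WT open and 1 colour for each age. The WT PND2 library at 14.01 on the horizontal axis is the highest in Pon1, and 7 of the 8 libraries above 7 are WT.

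At the later ages the Pon1 difference was less firm. At PND14 it read 11.15, 10.82 and 11.18 in KO and 10.57, 8.999 and 9.53 in WT, a difference of 1.35 that fell just short (limma adjusted p = 0.0558, with 8.2% of probe sets called). The call turned on the processing and on single libraries. It passed under 5 alternatives and without WT replicate 1 (1.78, limma adjusted p = 0.00949). At the other end of the range without single libraries the difference was 1.00 (limma adjusted p = 0.425). The lowest WT value, 8.999, came from replicate 2, the library that stood apart. At PND42 it read 12.16, 11.84 and 11.52 in KO and 12.31, 12.37 and 11.58 in WT, and the genotypes overlapped (-0.25, limma adjusted p = 0.875, 5.68% called). Averaged over PND0, PND14 and PND42 Pon1 was 1.91-fold higher in KO (log2 difference 0.94 ± 0.27, SE, limma adjusted p = 0.0104, 14.9% called), but without PND14 this was 0.73 and did not pass (limma adjusted p = 0.158).

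Within KO, Pon1 fell by 1.78 between PND1 and PND4 (limma adjusted p = 0.00834) and by 1.23 between PND0 and PND14 (limma adjusted p = 0.0355), and it stood 0.79 higher at PND42 than at PND14 (limma adjusted p = 0.3). Within WT it fell by 1.39 between PND1 and PND4 (limma adjusted p = 0.0433, 9.79% called) and rose by 2.39 between PND14 and PND42 (limma adjusted p = 0.000149, 14.8% called, but 0.08 with only the groups compared in the fit). The WT difference of -0.87 between PND14 and PND0 did not pass (limma adjusted p = 0.229, 13.6% called). The fall in WT over PND1 to PND4 did not pass without any 1 of 5 of its 6 libraries, and the fall in KO between PND0 and PND14 did not pass without any 1 of 5 of its 6. The KO step minus the WT step was -0.39 for PND4 minus PND1, -0.36 for PND14 minus PND0 and -1.60 for PND42 minus PND14, and none passed (limma adjusted p between 0.245 and 0.946). For these step differences 0.0488%, 7.63% and 1.21% of all probe sets passed, in the same order, and no member passed any of them.

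The dependence of the genotype difference on postnatal age was itself tested. For Pon1 it passed (F = 5.79, limma adjusted p = 0.00174), with all KO libraries above WT at PND0 and PND14 and all below at PND1, PND3 and PND4. Averaged over the 7 ages these signs cancelled, to -0.03 (95% interval -0.38 to 0.32, limma adjusted p = 0.935). For Inmt, Pon2 and Pon3 the F test did not pass (F = 2.01, 1.11 and 1.65, limma adjusted p = 0.204, 0.539 and 0.307). Of all probe sets 21.9% passed this F test. With only the postnatal groups in the fit, the F test of Inmt did pass (F = 7.81, limma adjusted p = 0.000912). The ages with all KO libraries below WT lay in the differently scaled set of arrays, and within the other set the difference was 1.71 at PND0, 1.35 at PND14 and -0.25 at PND42.

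**Figure D4:**
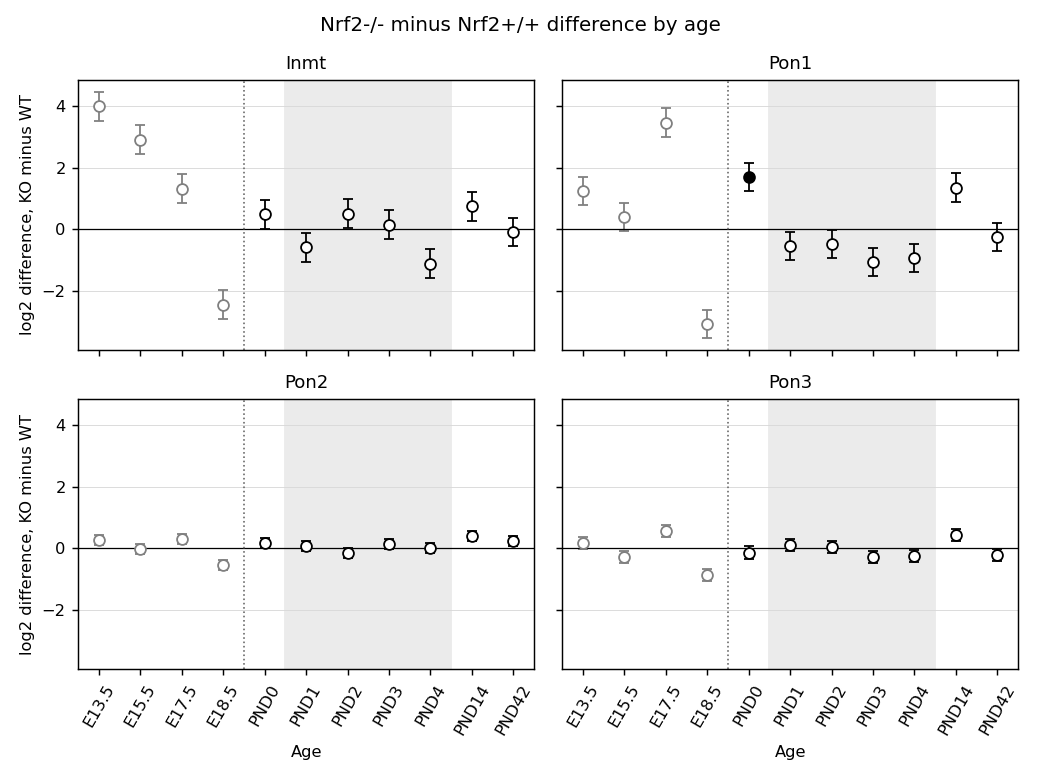
Difference KO minus WT (vertical axes, log2) with its standard error at each age for the 4 genes, with a dotted line between the 4 prenatal ages (grey, not tested) and the postnatal ages, a filled point where limma's adjusted p was under 0.05, and the grey band over the differently scaled ages. The 1 filled point is Pon1 at PND0, 1.71, and all 4 genes are below 0 at E18.5.

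Pon2, the intracellular paraoxonase, was present at every age and varied least. Its brightest probe set read 9.89, 9.61 and 9.53 in KO at E13.5, against 9.34, 9.16 and 9.71 in WT. At E17.5 it read 11.15, 10.99 and 11.07 in KO and 10.63, 10.69 and 10.98 in WT, and at E18.5 10.59, 10.70 and 10.75 in KO and 11.41, 11.31 and 10.94 in WT. As with the other genes, KO lay above WT at E17.5 and below it at E18.5 with no overlap, by 0.30 and -0.54. In WT it rose by 0.76 between E13.5 and E15.5 (limma adjusted p = 0.00122, 7.6% called) and by 0.60 between E15.5 and E17.5 (limma adjusted p = 0.00541, 18% called). The first of these steps did not pass with the other 3 probe sets, with values of 0.27 to 0.55. The second did not pass with array medians subtracted (0.38, limma adjusted p = 0.178) or without WT E17.5 replicate 3 (0.50, limma adjusted p = 0.0631). From E17.5 to E18.5 it stood 0.45 higher (limma adjusted p = 0.202, 1.23% called), and from E18.5 to PND0 0.21 higher (limma adjusted p = 0.648, 4.15% called).

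No postnatal age passed for Pon2, where differences lay between -0.13 and 0.40. At PND14 it read 12.02, 11.97 and 11.88 in KO and 12.04, 10.76 and 11.87 in WT. Only WT replicate 2, the library that stood apart, was low. Averaged over PND0, PND14 and PND42 it was 1.21-fold higher in KO (log2 difference 0.28 ± 0.09, SE, limma adjusted p = 0.0349). That call did not pass without WT PND14 replicate 2 (0.15, limma adjusted p = 0.191), without PND14 (0.22, limma adjusted p = 0.256) or with any other Pon2 probe set, where the values were 0.13, 0.24 and 0.23. Over the 7 ages the average was 0.14 (limma adjusted p = 0.137). The second bright probe set ran with the first over the 22 group means (Pearson r 0.986), as a description of probe sets that share their samples. The other 2 were dim, with medians of 6.59 in KO and 6.58 in WT and of 6.16 in KO and 6.15 in WT.

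Pon3, the other HDL-borne paraoxonase, changed mainly before birth. It read 8.07, 7.41 and 7.48 in KO at E13.5 and 7.31, 7.47 and 7.66 in WT, and the groups overlapped. At E17.5 it read 10.61, 10.56 and 10.65 in KO and 9.98, 9.95 and 10.23 in WT, and at E18.5 9.27, 9.94 and 9.89 in KO and 10.82, 10.55 and 10.35 in WT. The differences were 0.55 at E17.5 and -0.88 at E18.5, again in opposite directions without overlap. In WT, Pon3 rose by 0.88 between E13.5 and E15.5 (limma adjusted p = 0.00194) and by 1.69 between E15.5 and E17.5 (limma adjusted p = 5.47e-09), and reached its highest WT mean, 10.57, at E18.5. It stood 0.55 lower at PND0 than at E18.5, which did not pass (limma adjusted p = 0.108).

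After birth Pon3 stayed within a narrow range. At PND0 it read 9.91, 9.88 and 9.88 in KO and 10.02, 9.97 and 10.07 in WT, and at PND42 10.08, 9.81 and 10.003 in KO and 10.24, 10.15 and 10.14 in WT. All KO libraries lay below WT at both of these ages and at PND3 and PND4, with differences of -0.13 to -0.28, none of which passed. The largest postnatal difference ran the other way, 0.43 at PND14 (limma adjusted p = 0.177). It depended on single libraries. Leaving them out gave 0.002 to 0.73, with limma adjusted p from 0.00749, without WT replicate 1, up to 0.999. WT replicate 2, the library that stood apart, was the lowest in Pon3 at this age, at 8.66. The average over the 7 ages was -0.04, with a 95% interval of -0.19 to 0.11 (limma adjusted p = 0.793). Within KO, Pon3 fell by 0.73 between PND1 and PND4 (limma adjusted p = 0.0125), a call lost without KO PND4 replicate 3 (limma adjusted p = 0.0843), and in WT the same step was -0.37 and did not pass (limma adjusted p = 0.289). Its rise of 0.66 between PND14 and PND42 in WT (limma adjusted p = 0.0149) was 0.24 without WT PND14 replicate 2 (limma adjusted p = 0.48).

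**Figure D5:**
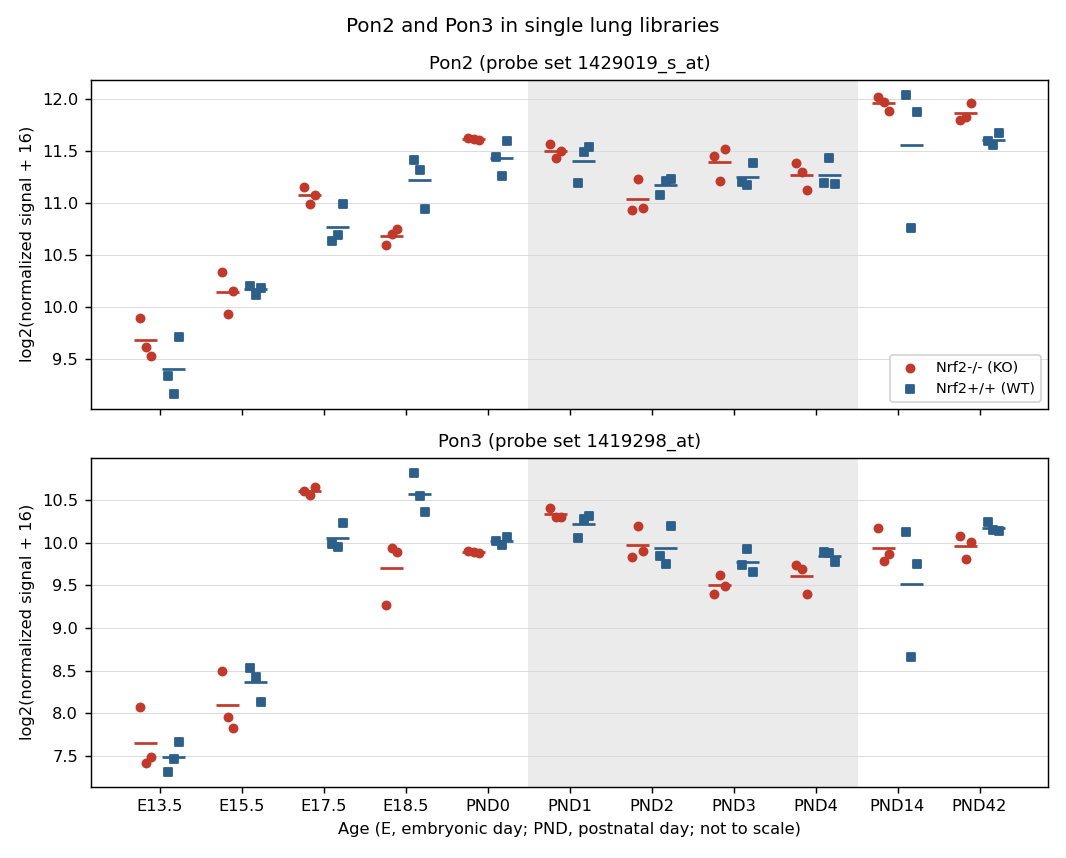
Level of Pon2 (brightest probe set) and Pon3 (vertical axes, log2 of normalized signal + 16) in each of the 66 lung libraries by age, KO circles left of WT squares, with bars at group means and the grey band over the differently scaled ages. All KO libraries lie above WT at E17.5 and below WT at E18.5 for both genes, and WT PND14 replicate 2 lies far below its group at 10.76 for Pon2 and 8.66 for Pon3.

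Ordered by group mean, Inmt ran from 5.20 ± 0.94 in WT E15.5 to 14.64 ± 0.06 in WT PND42 (SD, n = 3). The lowest pair, WT E15.5 and WT E13.5, overlapped each other and no other group. Above them KO E15.5 followed at 8.11 ± 0.66, within the wide range of KO E13.5 (7.28 to 11.70) and below its neighbour in the order. KO PND4, KO E18.5, KO E13.5, WT E17.5, WT PND3, WT PND4 and KO PND3 came next, from 9.27 to 10.52 with each overlapping the next. From KO E17.5 at 11.43 to WT PND14 at 13.78 every neighbour again overlapped the next, and the other PND14 and PND42 groups stood above, at 14.51 to 14.64. Pon1 ran from 5.06 ± 0.62 in WT E15.5 to 12.28 ± 0.31 in KO PND0. The 1 gap between the ranges of neighbouring groups was between WT E17.5 at 8.03 and KO PND4 at 9.01. It was very narrow, as WT E17.5 reached up to 8.805 and KO PND4 began at 8.809. Pon2 ran from 9.40 ± 0.28 in WT E13.5 to 11.96 ± 0.07 in KO PND14. Pon3 ran from 7.48 ± 0.18 in WT E13.5 to 10.61 ± 0.05 in KO E17.5, with a gap between WT E15.5 at 8.36 and KO PND3 at 9.50. These gaps of Pon1 and Pon3 lie between differently scaled sets of arrays.

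The 4 genes shared much of their course over the 22 group means. Pearson r was 0.883 for Inmt with Pon1, 0.877 for Pon1 with Pon2, 0.858 for Pon1 with Pon3, 0.854 for Inmt with Pon2, 0.839 for Pon2 with Pon3 and 0.716 for Inmt with Pon3, values that all share the rise before birth. Among 11273 genes with a mean above the median, those whose 22 group means were most like Inmt's were Mettl7a1 (r 0.938), Tut7 (0.937), Slc44a2 (0.930), Gsn (0.928) and Kat2b (0.928). Mettl7a1 encodes a methyltransferase-like protein and Gsn encodes gelsolin, which severs actin filaments. Nearest to Pon1 were the macrophage gene Chil3 (0.954), Cyp4v3 (0.952), Osmr (0.952), a receptor subunit for oncostatin M, Atp10d (0.950) and Snx13 (0.947). Nearest to Pon2 were Csgalnact2 (0.982), Limch1 (0.981), the sodium channel subunit Scnn1g (0.973), Smagp (0.973) and Fam174a (0.972). Nearest to Pon3 were Kcnj13 (0.981), a potassium channel, Abca3 (0.979), which loads surfactant lipid in alveolar type 2 cells, Lrrk2 (0.975), Slc4a5 (0.969) and Tc2n (0.966). Library and scaling set are shared by all these points.

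Genes of the same pathways were counted over the 7 postnatal ages together, where 9.58% of 18193 genes passed as higher in KO and 8.42% as lower. Of 17 measured Nrf2 target enzymes 13 fell and none rose, with a median difference of -0.35, among them the glutathione transferase Gsta3 (-2.01), the glutathione peroxidase Gpx2 (-1.62) and the aldehyde oxidase Aox1 (-1.25). No paraoxonase and not Inmt passed in that comparison. Of 10 other small-molecule methyltransferases none rose and none fell (median -0.06). Of 13 genes of the methionine and S-adenosylmethionine cycle, which supplies the methyl group, 2 rose, Mtr, methionine synthase (0.68, limma adjusted p = 2.15e-06), and Mat2b (0.08, limma adjusted p = 0.0499), and Mtap fell (-0.22, limma adjusted p = 0.000504).

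Of 11 genes of tryptamine and serotonin metabolism 2 rose, Cyp1a1 (0.72, limma adjusted p = 0.00062) and Ido1 (0.33), which opens the indole ring of tryptophan, and 2 fell, the serotonin transporter Slc6a4 (-0.55) and Ddc (-0.39), the decarboxylase that makes tryptamine and serotonin. Of 14 carboxylesterases and related hydrolases 3 fell and none rose, Ces1g (-0.80, limma adjusted p = 8.63e-06), Ces1f (-0.55) and the epoxide hydrolase Ephx2 (-0.40). Of 13 genes of the HDL particle and of cholesterol efflux 2 rose, the lipase Lipg (0.62, limma adjusted p = 1.48e-06) and the HDL receptor Scarb1 (0.25), and 3 fell, the apolipoproteins Apoa1 (-1.66) and Apoa2 (-1.48) and the transporter Abcg1 (-0.21). Of the 9 hepatocyte markers 7 were also lower over the 7 ages, and without the 8 libraries with high hepatocyte markers 3 HDL genes rose and 1 fell, with a median of 0.04, against -0.24 with all libraries.

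Within PND1 to PND4, where 7.84% of genes passed as higher and 8.37% as lower, 6 of the 13 HDL genes fell and 1 rose (median -0.62), among them Apoa1 (-2.69), Apoa2 (-2.43) and Apoa4 (-1.57). Bhmt and Mat1a of the methionine cycle (-2.13 and -1.08) and the methyltransferase Gnmt (-1.10) fell there too. Apoc1 (-1.33), Apoe (-0.66), Clu (-0.55), Mtap (-0.28) and Adk (-0.19) also fell. Apoa1, Apoa2, Bhmt, Mat1a and Gnmt are transcripts that liver makes in bulk, and Apoa4 in part. Hepatocyte markers were high in 7 WT libraries and 1 KO library of these days. Without those 8 libraries the median of the 13 HDL genes was 0.01. Apoa1, Bhmt, Mat1a and Gnmt then stood at 0.31, -0.04, -0.14 and 0.10. Apoc1, Apoe, Clu, Mtap and Adk stood at -0.56, -0.36, -0.80, -0.39 and -0.11. The part of liver transcripts in these differences was not tested. Within PND0, PND14 and PND42, where 8.79% passed as higher and 8.06% as lower, 4 of the 13 HDL genes rose and 1 fell (median 0.22), with Lipg at 0.90, Abca1 at 0.42, Scarb1 at 0.40 and Clu at 0.33, and Abcg1, the 1 that fell, at -0.34.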

How the data were processed

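Total RNA from whole-lung homogenates was hybridised to one-colour Affymetrix arrays. The deposited values are linear signal intensity per probe set, which the authors made with GCOS (named in the submitters' processing notes). The sources used here do not give its version, algorithm or scaling target. Per the deposited intensity values, 42 arrays have a 2% trimmed mean of 500 and the 24 arrays of PND1 to PND4 have 171.7 to 307.1. Scanner files and detection calls were not used here. Intensities were quantile normalized and converted to log2(value + 16). After 64 control probe sets were dropped, 45037 probe sets were fitted on 22 group means with limma 3.58.1 (lmFit, eBayes with intensity trend, residual df 44) in R 4.3.3 and its data.table package, version 1.17.8. P-values were adjusted by Benjamini-Hochberg over all probe sets of a comparison, with a threshold of 0.05. For genes of the lists the brightest probe set stood for the gene. Python 3.11.15, pandas 2.3.3 and matplotlib 3.10.9 were used for promoters and plots, and scripts were tested on simulated data.

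The 4 genes, the pathway and marker lists and the alternatives were chosen with earlier results of these data known. All probe sets of the 4 genes and of Nfe2l2, the list members, and the 5 genes with the highest Pearson correlation to each gene over 22 group means were eligible to be named. Platform annotation gave a single symbol to 34945 probe sets, several to 932 and none to 9160. Correlations within a group were at least 0.926 and no pair of arrays exceeded 0.983, so no library was counted as a repeat. The labels do not say whether the samples of a group came from separate litters, so p-values measure the spread between these samples. The number of arrays limits the precision. Alternatives were other normalizations, constants, filters, variance models, sample sets, probe sets, a replicate block and leaving out single libraries.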

Additional observations from a re-analysis of the deposited data

Results flagged for a closer look

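The KO minus WT difference of Inmt was 3.99 at E13.5 and -2.45 at E18.5, so the first less the second was 6.44 log2 units. All KO libraries lay above WT at E13.5 and all below at E18.5, as 7.13% and 12.7% of all probe sets did, and the difference between the ages was not tested. For Pon1 the KO minus WT difference at E17.5 less that at E18.5 was 6.54, for Pon3 it was 1.43 and for Pon2 0.85. For each of these 3 genes all KO libraries lay above WT at E17.5 and all below at E18.5, as 12.2% and 12.7% of all probe sets did at these ages, and the differences between the ages were not tested. The KO libraries of E17.5 and E18.5 stood in the opposite order to their labels on the scale of lung genes.

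The KO minus WT difference of Pon1 depended on postnatal age (F = 5.79, limma adjusted p = 0.00174), from 1.71 at PND0 to -1.06 at PND3 and 1.35 at PND14. Without the 8 libraries with high hepatocyte markers F was 4.57 (limma adjusted p = 0.0132).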

How the results depend on the processing

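Of 2665 alternative values for 124 results, 2453 kept their direction and side of the threshold, and another 105 changed sign with neither value past it. For Pon2 averaged over PND0, PND14 and PND42 (0.28), the call did not pass with array weights (0.174), each scaling set alone (0.284), only the groups compared (0.280) or probe sets 1425791_at (0.235), 1429020_at (0.242) and 1450686_at (0.134). It did not pass either without PND14 (0.220) or without the 8 libraries with high hepatocyte markers (0.282), both chosen after seeing the data, and leaving out single libraries gave 0.148 to 0.361, 7 of 18 of them without a call. Pon1 over PND1 to PND4 did not pass with a constant of 1 (-0.769) or without the 8 libraries (-0.457), and without single libraries it ran from -0.856 to -0.581. Pon1 over PND0, PND14 and PND42 did not pass without PND14 (0.730). The F of Inmt passed with only the groups compared (7.81), that of Pon3 ran from 0.957 to 3.37 without single libraries and passed without WT PND14 replicate 1, and the 7-age average of Pon2 ran from 0.0787 to 0.170 and passed without that library. Inmt at E15.5 was 4.09 and 1.90 with constants of 1 and 64. Directions turned for Pon2 at E13.5 with 1450686_at (-0.184), at E15.5 with 1429020_at (0.622) and without KO replicate 2 (0.0787, with -0.127 at the other end of the range without single libraries), at E17.5 with 1425791_at (-0.0280), for its WT step from E15.5 to E17.5 with 1425791_at (-0.144), and for Pon3 at E13.5 without KO replicate 1 (-0.0325, against 0.297 at the other end). The causes were not tested.

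Pairing by replicate number was not detected, which does not show that the samples were unpaired. Of 33 pairs with the same number, 1 correlated above 0.1, and in 14 of the 33 the same number was the best match. With the replicate block the 56 tested values stayed on their side of the threshold and 16 prenatal values were untested, and Pon1 over PND0, PND14 and PND42 was 0.937 (limma adjusted p = 0.0262). The block could not be used for steps within a genotype, nor each scaling set alone for the 7-age average and the F test. Dim signals near the array's floor limit Inmt and Pon1 before E17.5.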
